A study of Drosophila melanogaster with 8 samples.

Results

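The genes described here are 10 genes for the contractile apparatus of muscle in the *Drosophila* larval midgut: *Mhc*, *Mlc1*, *Mlc2*, *Act57B*, *Tm1*, *Tm2*, *wupA*, *up*, *bt* and *sls*. They were chosen by symbol and matched to their FlyBase identifiers, and all 10 were found among the 17713 genes of the count table. All 10 also passed the filter on low values, with 7665 genes tested in all. The gut of the fly larva is wrapped in a sheath of circular and longitudinal visceral muscle, which drives peristalsis. Like skeletal muscle of the fly, this muscle is striated and is built of sarcomeres, in which thick filaments of myosin slide along thin filaments of actin, tropomyosin and troponin, while giant elastic proteins tie the thick filaments to the Z-disc. Calcium released from the sarcoplasmic reticulum binds the troponin complex and switches contraction on.

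Midguts of larvae of the third instar, males and females mixed, were dissected 96 hours after egg laying. Pngl is the fly homolog of human NGLY1, a cytosolic enzyme that removes N-glycans from misfolded proteins. The comparison asks how midgut mRNA levels differ when *Pngl* is lost. RNA from 4 genotypes, all in a *y w* background, was sequenced in 2 libraries each, which the study's methods call biological replicates. The genotypes were *y w*, with wild-type *Pngl*; *Pngl*+/-, with 1 *Pngl* ex14 allele over a CyO balancer that carries a Kr>GFP marker; *Pngl*-/-, homozygous for *Pngl* ex14, which the study describes as a null allele; and *Pngl Dp/+*, also homozygous for *Pngl* ex14 but with 1 copy of a genomic *Pngl* transgene on a PBac construct. The balancer was present in *Pngl*+/- alone, and *Mhc* and *Act57B* lie on the chromosome that it balances. Each sample pooled many midguts (40 per the labels, fewer in the methods), and the labels and the methods name different insertion sites for the transgene.

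The count totals of the libraries ran from 20414011 to 28382919, and the libraries of each genotype differed from each other by more than sampling noise, with a mean chi-square per gene between 2.51 and 14.3. Levels are given as CPM, which are counts relative to the library total, scaled by TMM factors that correct for differences in library composition. These factors lay between 1.11 and 1.16 in *y w* and *Pngl Dp/+* and between 0.873 and 0.892 in the other libraries, the genotypes with low sarcomere gene levels, and values under other factors are given below. *Pngl* itself (FBgn0033050) was at 33.4 and 31.2 CPM in *y w*, 21.0 and 20.6 CPM in *Pngl Dp/+*, 44.9 and 41.3 CPM in *Pngl*+/- and 58.1 and 56.5 CPM in the libraries labelled *Pngl*-/-. Its mRNA was thus highest in the libraries labelled as null homozygotes and lowest in *Pngl Dp/+*, which is homozygous for the same allele. The study does not say whether the ex14 allele leaves transcript. *Pngl Dp/+* carries the same alleles plus a transgene, yet the libraries labelled *Pngl*-/- were above it by 1.46 on the log2 scale. The reason was not tested, so these levels do not settle the labels. The labels were kept, and the name "libraries labelled *Pngl*-/-" is used throughout. The p-values below measure only the spread between these libraries. In a whole-tissue sample, fewer muscle cells and less RNA per muscle cell cannot be told apart. The study reports that *Pngl*-/- larvae develop late, so in larvae of equal age larval stage cannot be told apart from genotype either.

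The 10 sarcomere genes differed by less than 1.5-fold between *y w* and *Pngl Dp/+* and were lower in *Pngl*+/- and in the libraries labelled *Pngl*-/-. Together they took 0.930% and 0.934% of all counts in the *y w* libraries. The share was 0.942% and 0.948% in *Pngl Dp/+*, 0.424% and 0.416% in *Pngl*+/-, and 0.427% and 0.425% in the libraries labelled *Pngl*-/-. The share in *Pngl*+/- was therefore 45.1% of the *y w* mean, that in the libraries labelled *Pngl*-/- was 45.7%, and that in *Pngl Dp/+* was 101%. These shares are not corrected for library composition. In CPM scaled by the TMM factors the 10 genes summed to 8030 and 8211 in *y w* and 8448 and 8524 in *Pngl Dp/+*. The sums were 4751 and 4662 in *Pngl*+/- and 4885 and 4816 in the libraries labelled *Pngl*-/-, so the relative gap was smaller on that scale. The libraries of each genotype lay close together, and the pair of low genotypes did not overlap with the pair of high genotypes.

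**Figure D1:**
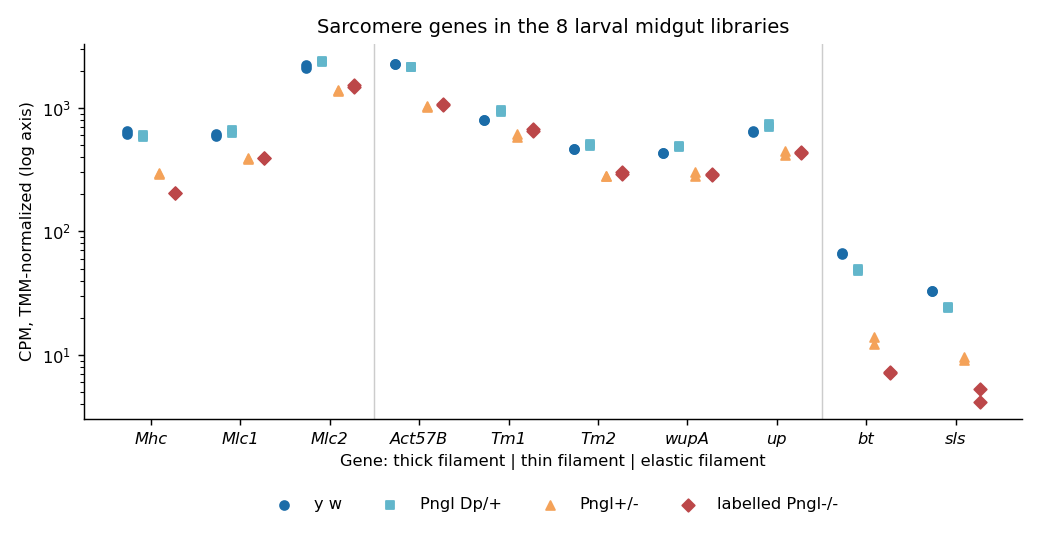
Level of each sarcomere gene in each of the 8 libraries, in TMM-normalized CPM on a log axis, with 1 symbol per library and genes ordered by filament. *Mhc* lay at 619 and 654 CPM in *y w* and at 206 and 205 CPM in the libraries labelled *Pngl*-/-, and the *Pngl Dp/+* libraries differed from those of *y w* by less than 1.5-fold for each gene.

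The test was edgeR's quasi-likelihood test, and a gene was called where its level differed 1.5-fold or more and its p, adjusted over all 7665 genes by the Benjamini-Hochberg method, did not exceed 0.05. In the libraries labelled *Pngl*-/- against *y w*, 6 of the 10 genes fell (*Mhc*, *Mlc1*, *Act57B*, *Tm2*, *bt* and *sls*) and none rose, where 24.4% of all tested genes fell and 17.9% rose. The other 4 genes were lower by less than 1.5-fold, from 1.21-fold for *Tm1* to just under 1.5-fold for *wupA*. The median log2 fold change of the 10 genes was −0.64, against −0.01 over all tested genes. Against *Pngl Dp/+*, 9 of the 10 genes fell in the libraries labelled *Pngl*-/- (22.2% of all tested genes fell and 12.1% rose), and *Tm1* was 1.43-fold lower. The median there was −0.75, against −0.02 over all tested genes.

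*Pngl*+/- midguts also had low sarcomere gene levels. Against *y w*, 8 of the 10 genes fell in *Pngl*+/- (17.5% of all tested genes fell), and *wupA* and *Tm1* were 1.47-fold and 1.34-fold lower. The median was −0.70, against 0.00 over all tested genes. All 10 genes were higher in *Pngl Dp/+* than in *Pngl*+/-, with a median of 0.82, and each was called, where 14.0% of all tested genes rose and 7.91% fell. Comparisons that share a genotype share its libraries, so these counts are not independent of each other.

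The libraries labelled *Pngl*-/- and the *Pngl*+/- libraries differed far less. Only *bt* and *sls* fell and none rose, where 13.1% of all tested genes fell and 7.58% rose, so that the count is near the background. The median was 0.03, against −0.05 over all tested genes. *Pngl Dp/+* and *y w* differed by less than 1.5-fold for each of the 10 genes, and none was called in either direction, where 5.68% of all tested genes fell and 6.78% rose. Of these 10 genes, 9 had an unadjusted p under 0.05 and 8 passed the adjusted p in edgeR's quasi-likelihood test, while DESeq2 gave 8 and 5 and edgeR's likelihood ratio test 6 and 4, and neither called any.

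**Figure D2:**
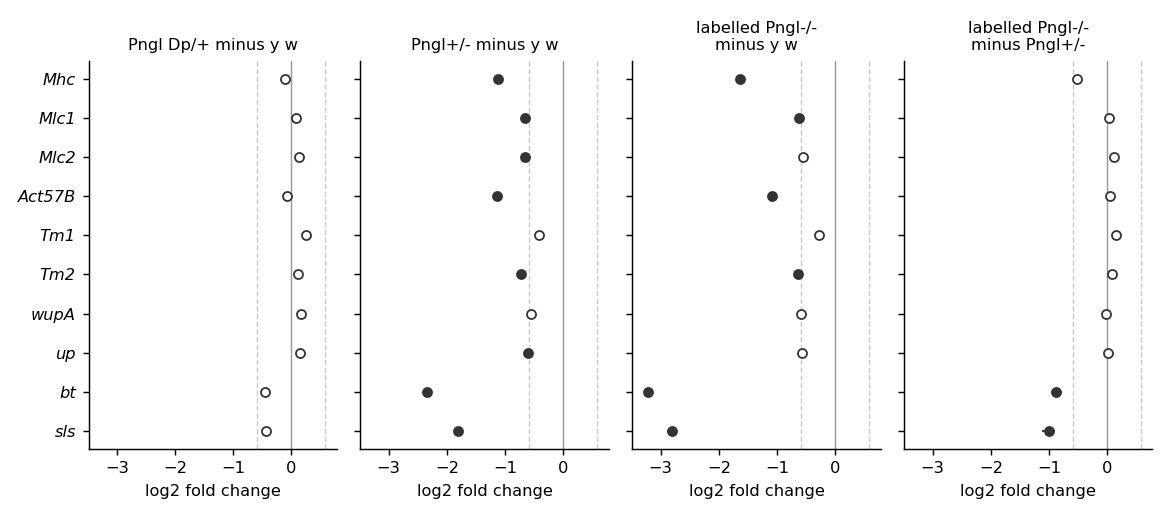
Log2 fold change of each sarcomere gene in 4 comparisons, with the standard error of the fit as a bar where it is wider than the point. Filled points were called, open points were not, and the dashed lines mark a fold change of 1.5. *bt* and *sls* lay farthest from 0 against *y w*, at −3.22 and −2.81 in the libraries labelled *Pngl*-/-.

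Counts close to the 1.5-fold threshold turned on single libraries and on the scaling. *Mlc1* lost its call against *y w* in the libraries labelled *Pngl*-/- without *y w* replicate 2 (log2 fold change −0.57) or without either *Pngl Dp/+* library (−0.58 each), and *wupA* gained one without *Pngl*-/- replicate 2 (−0.60). In *Pngl*+/- against *y w*, *up* lost its call without *Pngl*+/- replicate 2 (−0.55) and *wupA* gained one without *Pngl*+/- replicate 1 (−0.62). With TMM factors from all genes, 4 genes were called in the libraries labelled *Pngl*-/- against *y w* and 5 in *Pngl*+/- against *y w*, and with no composition normalization 10 and 10. The median log2 fold change of all tested genes shifted by 0.20 and 0.12 under the former setting and by −0.39 and −0.36 under the latter. The shares of all tested genes called under these other scalings are not given, here or for the lists below. Against *Pngl Dp/+*, 6 genes were called lower in the libraries labelled *Pngl*-/- with TMM factors from all genes, where *Mlc1*, *Mlc2* and *up* lost their calls, and 6 with no filter. All 10 genes stayed below 0 in the comparisons with *y w* under each of these scalings.

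The thick filament genes showed different sizes of change. *Mhc* (FBgn0264695, chromosome 2L from 16766566 to 16788766 in dm6) encodes the only muscle myosin heavy chain of the fly, whose isoforms arise by alternative splicing, and the counts sum its 21 annotated transcripts. It was at 619 and 654 CPM in *y w*, 599 and 583 CPM in *Pngl Dp/+*, 290 and 297 CPM in *Pngl*+/- and 206 and 205 CPM in the libraries labelled *Pngl*-/-. The 4 genotypes did not overlap, and the libraries labelled *Pngl*-/- were the lowest. Relative to *y w* they were at −1.64 on the log2 scale (standard error 0.04, adjusted p = 1.13e-14), with −1.53 against *Pngl Dp/+* (adjusted p = 2.97e-14) and −0.52 against *Pngl*+/- (adjusted p = 1.83e-08), which is 1.43-fold and below the threshold for a call. *Pngl*+/- was 2.18-fold below *y w* (adjusted p = 1.11e-12).

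As tested, the myosin light chains differed less between genotypes than the heavy chain, an order that turned for *Mlc1* with the transcript length trend described below removed. *Mlc1* (FBgn0002772, chromosome 3R from 27657078 to 27660177), the essential or alkali light chain, was at 597 and 615 CPM in *y w*, 660 and 628 CPM in *Pngl Dp/+*, 389 and 382 CPM in *Pngl*+/- and 391 and 396 CPM in the libraries labelled *Pngl*-/-. *Mlc2* (FBgn0002773, chromosome 3R from 30171438 to 30174551), the regulatory light chain, was at 2122 and 2237 CPM in *y w*, 2366 and 2395 CPM in *Pngl Dp/+*, 1385 and 1373 CPM in *Pngl*+/- and 1524 and 1463 CPM in the libraries labelled *Pngl*-/-. Both were high in *y w* and *Pngl Dp/+* and low in the other genotypes, without overlap. Against *y w* the log2 fold change in the libraries labelled *Pngl*-/- was −0.63 for *Mlc1* (standard error 0.04, adjusted p = 5.17e-10) and −0.55 for *Mlc2* (standard error 0.04, adjusted p = 4.69e-09). Relative to *Pngl*+/-, *Mlc2* was at 1.08-fold in the libraries labelled *Pngl*-/- (adjusted p = 0.0223), below the threshold for a call, and *Mlc1* at 1.02-fold (log2 fold change 0.03, standard error 0.04, adjusted p = 0.544).

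Count ratios within a library, which do not depend on the scaling, set the heavy and light chains apart. The ratio of *Mhc* to *Mlc1* counts was 1.04 and 1.06 in *y w*, 0.908 and 0.928 in *Pngl Dp/+*, 0.744 and 0.778 in *Pngl*+/- and 0.526 and 0.516 in the libraries labelled *Pngl*-/-. The ratio of *Mlc2* to *Mlc1* counts lay between 3.56 and 3.90 in all 8 libraries, with overlapping genotypes. *Mhc* transcripts are longer than those of *Mlc1*, and with the length trend removed (below) *Mhc* was at −0.61 and *Mlc1* at −0.85 on the log2 scale in the libraries labelled *Pngl*-/- relative to *y w*. For *Pngl*+/- these values were −0.48 and −0.83. The direction of the difference between heavy and light chain thus depended on whether transcript length was taken into account.

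*Act57B* showed the largest change among the thin filament genes. *Act57B* (FBgn0000044, chromosome 2R from 20944021 to 20946431) encodes a muscle actin that larval muscle uses. It was at 2250 and 2275 CPM in *y w*, 2152 and 2156 CPM in *Pngl Dp/+*, 1023 and 1033 CPM in *Pngl*+/- and 1063 and 1065 CPM in the libraries labelled *Pngl*-/-. The libraries labelled *Pngl*-/- were 2.13-fold below *y w* (log2 fold change −1.09, standard error 0.04, adjusted p = 3.71e-13) and *Pngl*+/- was 2.21-fold below it. The 4 genotypes did not overlap, but the low ones lay 1.03-fold apart (adjusted p = 0.255) and the high ones 1.05-fold apart (adjusted p = 0.0951). Its coding sequence resembles those of the other actins, and how reads that fit more than 1 gene were counted is not given in the sources used here, so its exact level is uncertain. A snoRNA gene overlaps 96 bases of its exons on the same strand.

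Tropomyosin lies along the actin filament and blocks the myosin binding sites until calcium rises. *Tm2* (FBgn0004117, chromosome 3R from 15310193 to 15315197), a muscle tropomyosin, was at 462 and 463 CPM in *y w*, 491 and 509 CPM in *Pngl Dp/+*, 281 and 279 CPM in *Pngl*+/- and 293 and 300.0 CPM in the libraries labelled *Pngl*-/-. *Tm1* (FBgn0003721, chromosome 3R from 15278220 to 15308779) was at 798 and 797 CPM in *y w*, 928 and 966 CPM in *Pngl Dp/+*, 613 and 583 CPM in *Pngl*+/- and 676 and 650 CPM in the libraries labelled *Pngl*-/-. Both genes had the same order of genotypes, but *Tm1* spanned a smaller range. In the libraries labelled *Pngl*-/- against *y w* the log2 fold change was −0.65 for *Tm2* (standard error 0.04, adjusted p = 1.99e-10) and −0.27 for *Tm1* (standard error 0.04, adjusted p = 1.32e-05). *Tm1* also gives rise to cytoskeletal isoforms that cells other than muscle use, and the counts sum all 18 of its annotated transcripts. The ratio of *Tm2* to *Tm1* counts was between 0.527 and 0.581 in *y w* and *Pngl Dp/+* and between 0.434 and 0.478 in the other 4 libraries. A gene on the opposite strand, *l(3)neo43*, overlaps 280 bases of *Tm1* exons, and whether the counting used strand is not stated.

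The 2 troponin genes had similar values. *wupA* (FBgn0283471, chromosome X from 18105568 to 18116922) encodes troponin I, the inhibitory subunit, and was at 429 and 430 CPM in *y w*, 487 and 480 CPM in *Pngl Dp/+*, 304 and 281 CPM in *Pngl*+/- and 284 and 293 CPM in the libraries labelled *Pngl*-/-. *up* (FBgn0004169, chromosome X from 13593474 to 13602578) encodes troponin T, which anchors the complex to tropomyosin, and was at 653 and 641 CPM in *y w*, 694 and 734 CPM in *Pngl Dp/+*, 444 and 414 CPM in *Pngl*+/- and 436 and 435 CPM in the libraries labelled *Pngl*-/-. For these genes, and for no other of the 10, the *Pngl*+/- libraries overlapped with those labelled *Pngl*-/-. The log2 fold change between those genotypes was −0.02 for *wupA* (standard error 0.04, adjusted p = 0.678) and 0.02 for *up* (standard error 0.04, adjusted p = 0.664). Against *y w* the libraries labelled *Pngl*-/- were at −0.58 for *wupA* (adjusted p = 3.48e-09) and −0.57 for *up* (adjusted p = 4.85e-09), each just short of the 1.5-fold threshold. The ratio of *up* to *wupA* counts lay between 1.43 and 1.54 in all 8 libraries, and the genotypes overlapped.

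The giant elastic filament proteins had the largest changes of the 10 genes. *bt* (bent; FBgn0005666, chromosome 4 from 724400 to 776474) encodes projectin, a member of the titin and twitchin family that binds thick filaments. It was at 67.3 and 65.3 CPM in *y w*, 47.6 and 49.5 CPM in *Pngl Dp/+*, 13.9 and 12.2 CPM in *Pngl*+/- and 7.21 and 7.08 CPM in the libraries labelled *Pngl*-/-. These libraries were 9.30-fold below *y w* (log2 fold change −3.22, standard error 0.08, adjusted p = 8.47e-15), 6.82-fold below *Pngl Dp/+* and 1.83-fold below *Pngl*+/- (adjusted p = 7.9e-07). *Pngl*+/- was 5.07-fold below *y w*, and *Pngl Dp/+* was 1.36-fold below it. No genotypes overlapped.

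*sls* (sallimus; FBgn0086906, chromosome 3L from 2039681 to 2115611) encodes the titin-like protein that links the Z-disc to the thick filament. It was at 32.9 and 32.7 CPM in *y w*, 23.8 and 24.6 CPM in *Pngl Dp/+*, 9.70 and 9.09 CPM in *Pngl*+/- and 5.24 and 4.16 CPM in the libraries labelled *Pngl*-/-. The genotypes followed the same order as for *bt*, again without overlap. The libraries labelled *Pngl*-/- were 7.01-fold below *y w* (log2 fold change −2.81, standard error 0.09, adjusted p = 2.49e-13) and 2.01-fold below *Pngl*+/- (adjusted p = 2.19e-06). The filter used CPM without TMM factors. On that scale both libraries labelled *Pngl*-/-, with 101 and 84 counts, were below 5 CPM, so *sls* passed the filter through the other genotypes. The ratio of *bt* to *Mhc* counts was 0.109 and 0.0999 in *y w*, 0.0795 and 0.0850 in *Pngl Dp/+*, 0.0481 and 0.0410 in *Pngl*+/- and 0.0351 and 0.0346 in the libraries labelled *Pngl*-/-. The *bt* transcript is the longer of the pair, and with the length trend removed (below) the log2 fold change against *y w* in the libraries labelled *Pngl*-/- was −0.75 for *bt* and −0.61 for *Mhc*. An antisense RNA, *asRNA:CR42860*, overlaps 1089 bases of *sls* exons.

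Per kilobase of merged exons, the order of the levels was nearly the same in every library. In *y w* the mean CPM per kilobase was 1313 for *Act57B*, 953 for *Mlc2*, 429 for *Mlc1*, 256 for *up*, 217 for *wupA*, 177 for *Tm2*, 81.3 for *Tm1* and 70.3 for *Mhc*, with *bt* at 2.37 and *sls* at 0.556 far below the rest. *Act57B* stood above *Mlc2* in each *y w* and *Pngl Dp/+* library and below it in each of the other 4, and every other gene kept its place in all 8 libraries. The ratio of *Act57B* to *Mlc2* counts was between 0.90 and 1.06 in *y w* and *Pngl Dp/+* and between 0.697 and 0.752 in the other 4 libraries. *Act57B* thus had the larger fall of the pair of most abundant members. The level per kilobase of *Tm1* and *Mhc* is a lower figure than that of a single transcript, since their merged exons include exons that exclude each other.

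In the libraries labelled *Pngl*-/- against *y w*, the 3 genes with the largest falls are also those with the longest transcripts, while in *Pngl*+/- against *y w* *Act57B* (−1.14) lay slightly below *Mhc* (−1.12). The longest annotated transcript was 56489 bases for *sls*, 27666 bases for *bt* and 7341 bases for *Mhc*, and between 1347 and 3054 bases for the other 7. Among those 7 the log2 fold change of the libraries labelled *Pngl*-/- against *y w* ranged from −1.09 to −0.27, and against *Pngl*+/- from −0.02 to 0.15. Genes outside the listed gene groups varied with transcript length as well. In the libraries labelled *Pngl*-/- against *y w* the median log2 fold change was 0.41 for 1299 genes under 1 kb, 0.20 for 2506 genes of 1 to 2 kb, −0.12 for 2356 genes of 2 to 4 kb, −0.66 for 1111 genes of 4 to 8 kb and −1.43 for 219 genes of 8 to 16 kb. It was −2.43 for the 15 genes of at least 16 kb, a class with few genes. The share of genes that fell went from 12.4% in the shortest class to 83.6% in the class of 8 to 16 kb.

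The same dependence, with a smaller range, was present in *Pngl*+/- against *y w*, where the medians went from 0.32 under 1 kb to −0.83 at 8 to 16 kb, and it was smaller again in *Pngl Dp/+* against *y w*, from 0.11 to −0.16. In *Pngl*+/- against *y w* the medians were 0.14 for genes of 1 to 2 kb and −0.08 for genes of 2 to 4 kb, the classes that hold the 7 shorter sarcomere genes. These 7 genes lay between −1.14 and −0.42 in that comparison, all below the median of their class. In the libraries labelled *Pngl*-/- against *y w* they were also all below the medians of their classes. *Mhc*, at −1.64, lay below the median of −0.66 for genes of 4 to 8 kb.

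**Figure D3:**
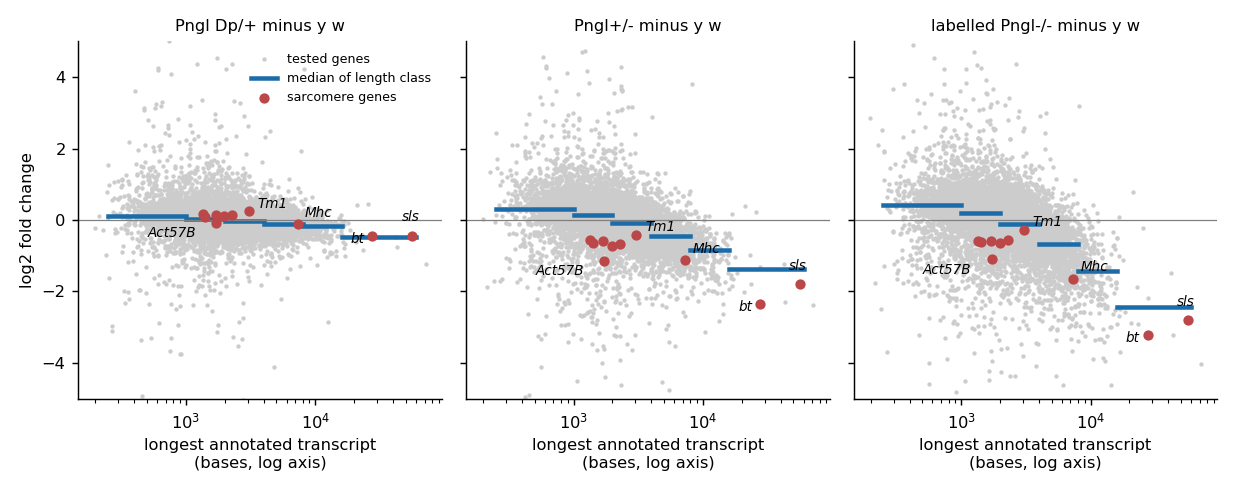
Log2 fold change against *y w* by the length of the longest annotated transcript (log axis), for all tested genes (grey; the few beyond 5 in either direction are not drawn), with the median of each length class (blue) and the 10 sarcomere genes (red). The sarcomere genes of 1 to 4 kb lie below the medians of 0.20 and −0.12 in the libraries labelled *Pngl*-/-, and *bt* and *sls* lie at the long end, where few genes were tested.

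The fit was repeated with the length trend of each library removed, a choice made after seeing the data. The trend was a lowess curve over tested genes outside the lists. The log2 fold change of the libraries labelled *Pngl*-/- against *y w* then was −0.61 for *Mhc* (standard error 0.04, adjusted p = 1.19e-09), −0.75 for *bt* (standard error 0.08, adjusted p = 6.11e-07) and 0.44 for *sls* (standard error 0.10, adjusted p = 0.00113). *Act57B* was at −1.23, *Mlc1* at −0.85, *wupA* at −0.82, *up* at −0.72, *Tm2* at −0.71, *Mlc2* at −0.53 and *Tm1* at −0.08 (adjusted p = 0.0841). With the trend removed, 7 of the 10 genes were called lower in this comparison, where 18.3% of all tested genes were lower and 15.2% higher, and *Mlc2*, *Tm1* and *sls* were not called. Only 3 tested genes outside the lists had a transcript as long as that of *bt* and only 1 as long as that of *sls*, so the trend is poorly determined there.

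With the trend removed, 7 genes were called lower in *Pngl*+/- against *y w*, where 13.1% of all tested genes were lower and 10.8% higher. Against *Pngl Dp/+*, 8 were called lower in the libraries labelled *Pngl*-/-, where 15.8% of all tested genes were lower and 10.8% higher. None of the 10 was called in *Pngl Dp/+* against *y w* by edgeR, where 5.73% of all tested genes were lower and 6.3% higher, and 7 were called higher in *Pngl Dp/+* than in *Pngl*+/-, where 10.2% of all tested genes were higher and 6.65% lower. No gene of the 10 was called between the libraries labelled *Pngl*-/- and *Pngl*+/-, where 10.3% of all tested genes were lower and 8.15% higher. In that comparison *bt* went from −0.87 to 0.12 (adjusted p = 0.347) and *sls* from −1.005 to 0.32 (adjusted p = 0.027), so the calls of these genes between those genotypes were not kept. The medians of the 10 genes were −0.71 for the libraries labelled *Pngl*-/- against *y w* and −0.73 for *Pngl*+/- against *y w*.

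**Figure D4:**
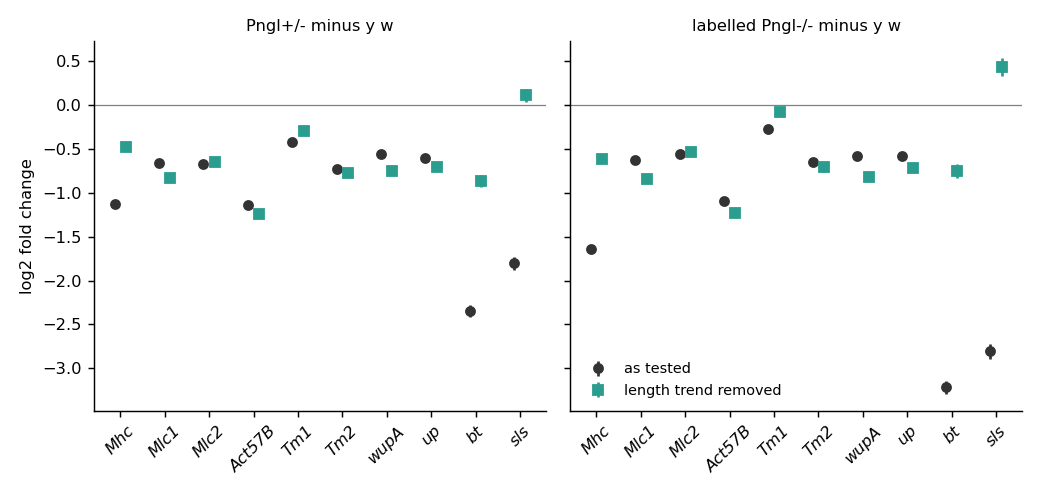
Log2 fold change of each sarcomere gene against *y w* as tested (circles) and with the transcript length trend removed (squares), with standard errors. *bt* goes from −3.22 to −0.75 and *Mhc* from −1.64 to −0.61 in the libraries labelled *Pngl*-/-, *sls* crosses 0, and the shorter genes stay at or below 0.

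A list of 24 other sarcomere genes, 19 of them tested, had a similar pattern as tested. In the libraries labelled *Pngl*-/-, 12 fell and 1 rose against *y w* (median log2 fold change −0.71), 13 fell against *Pngl Dp/+* (median −0.90) and 1 fell against *Pngl*+/- (median −0.16). Of all tested genes, 24.4% fell and 17.9% rose against *y w*, 22.2% fell against *Pngl Dp/+* and 13.1% fell against *Pngl*+/-. In *Pngl*+/- against *y w*, 10 fell and 1 rose, and 12 were higher in *Pngl Dp/+* than in *Pngl*+/-. *Msp300*, a giant nesprin that anchors nuclei and mitochondria in muscle and whose longest transcript has 43121 bases, fell in all 3 comparisons of the libraries labelled *Pngl*-/-. It was at 159 and 160 CPM in *y w*, 88.6 and 99.0 CPM in *Pngl Dp/+*, 31.4 and 33.8 CPM in *Pngl*+/- and 17.4 and 17.2 CPM in the libraries labelled *Pngl*-/-, and the genotypes did not overlap. Compared with *y w* the latter were at −3.21 on the log2 scale (adjusted p = 8.12e-16).

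The remaining genes of that list named here were chosen after their values were seen. *Prm*, the paramyosin in the core of thick filaments, was at −1.31 in the libraries labelled *Pngl*-/- against *y w*, and *Actn*, the alpha-actinin of the Z-disc, at −1.12. The calcium-binding subunit of troponin is encoded by several genes, which differed in direction. *TpnC73F* was at −1.33 (168 and 172 CPM in *y w*, 67.6 and 68.1 CPM in the libraries labelled *Pngl*-/-) and *TpnC25D*, the gene of the list that rose, at 0.70 (59.3 and 57.6 CPM in *y w*, 94.6 and 95.2 CPM in the libraries labelled *Pngl*-/-). *TpnC25D* was also higher in *Pngl*+/- and *Pngl Dp/+* than in *y w*. With TMM factors from all genes, 7 of the list fell and 2 rose against *y w* in the libraries labelled *Pngl*-/-, and with no composition normalization 16 fell and none rose. With the length trend removed, 8 were lower and 1 higher against *y w*, 8 lower and 1 higher against *Pngl Dp/+*, and in *Pngl*+/- against *y w* 7 lower and 2 higher.

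Most tested genes of calcium handling, which controls contraction, were lower too. Of 9 listed genes 8 were matched and 5 were tested, and 4 of these fell in the libraries labelled *Pngl*-/- against *y w*, 4 against *Pngl Dp/+* and 2 against *Pngl*+/-. Of all tested genes, 24.4%, 22.2% and 13.1% fell in these comparisons. In *Pngl*+/- against *y w*, 4 fell, where 17.5% of all tested genes fell. The longest transcripts of the 5 genes have 5935 to 16056 bases. Of genes outside the lists, 55.2% of those of 4 to 8 kb, 83.6% of those of 8 to 16 kb and 86.7% of longer ones fell in the libraries labelled *Pngl*-/- against *y w*. *RyR*, the ryanodine receptor through which calcium leaves the sarcoplasmic reticulum, was at 6.59 and 6.70 CPM in *y w*, 4.70 and 5.13 CPM in *Pngl Dp/+*, 1.22 and 2.35 CPM in *Pngl*+/- and 1.04 and 0.743 CPM in the libraries labelled *Pngl*-/-. *RyR* passed the filter only through *y w* and *Pngl Dp/+*, the genotypes where it is high, so its fold change is given as a value alone. The counts of genes that fell given above include *RyR*. *Itpr*, the inositol trisphosphate receptor, which many cell types use, was at 15.3 and 16.2 CPM in *y w* and 5.29 and 5.10 CPM in the libraries labelled *Pngl*-/-. The log2 fold change of the libraries labelled *Pngl*-/- against *y w* was −2.90 for *RyR* and −1.61 for *Itpr* (adjusted p = 7.01e-10). Both have long transcripts, of 16056 and 10304 bases, and with the length trend removed 2 of the 5 genes were lower and 1 was higher against *y w*.

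**Figure D5:**
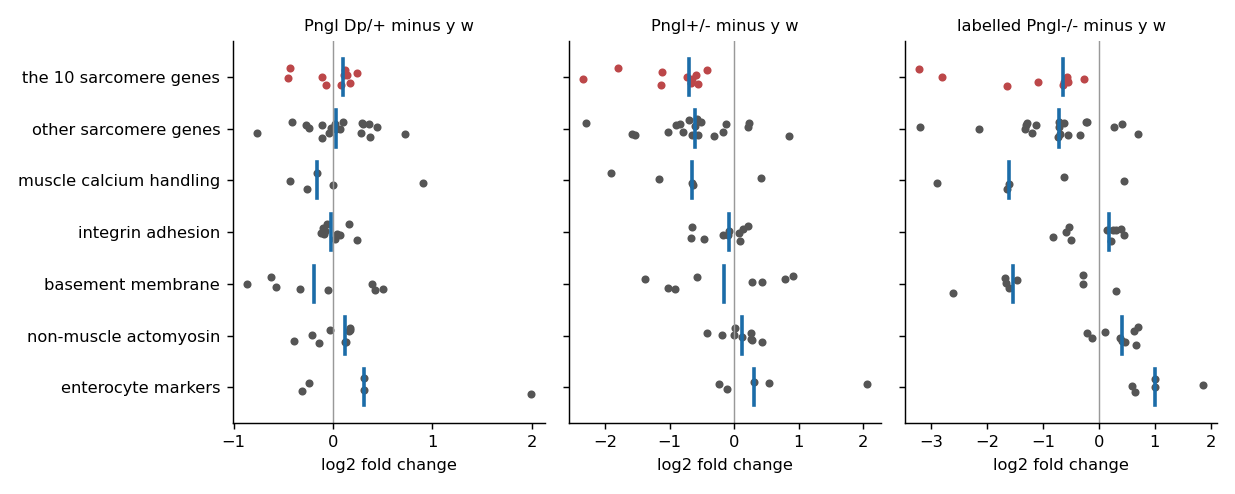
Log2 fold changes against *y w* of the 10 sarcomere genes (red) and of the genes of 6 other lists (grey), with 1 point per tested gene and a blue line at each list's median; points are spread vertically for visibility, and the x axes differ between panels. The median of the 10 genes is 0.10 in *Pngl Dp/+*, −0.70 in *Pngl*+/- and −0.64 in the libraries labelled *Pngl*-/-, and that of the 19 other sarcomere genes is 0.03, −0.61 and −0.71.

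Genes for actin and myosin of cells in general, a list of 10 with 9 matched and tested, did not share this pattern. Among the libraries labelled *Pngl*-/-, 3 rose against *y w*, 1 rose against *Pngl Dp/+* and none fell, and none was called in *Pngl*+/- against *y w*. Of all tested genes, 17.9% rose against *y w* and 12.1% against *Pngl Dp/+* in the libraries labelled *Pngl*-/-. *Act5C*, a cytoplasmic actin, was at 3490 and 3550 CPM in *y w* and 5710 and 5810 CPM in the libraries labelled *Pngl*-/- (log2 fold change 0.71, adjusted p = 1.48e-10), the opposite direction to *Act57B*. *tsr*, the fly cofilin, which severs actin filaments, was at 525 and 516 CPM in *y w* and 724 and 727 CPM in the libraries labelled *Pngl*-/- (log2 fold change 0.47, not called). With no composition normalization none of the list rose and 1 fell against *y w*, and with TMM factors from all genes 5 rose. With the length trend removed, 2 were higher against *y w* and 1 against *Pngl Dp/+* in the libraries labelled *Pngl*-/-. In *Pngl*+/- against *y w*, 1 was then higher.

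Integrins anchor muscle to the surrounding matrix at the membrane. Of 10 integrin adhesion genes, all tested, 2 fell and none rose in the libraries labelled *Pngl*-/- against *y w*, 2 fell against *Pngl Dp/+* and none was called against *Pngl*+/-. Of all tested genes, 24.4% fell against *y w* and 22.2% against *Pngl Dp/+*, so the counts that fell are near the background. Against *y w* the counts turned with the processing, to 1 lower and 2 higher with TMM factors from all genes, 4 lower and none higher with no composition normalization, and none lower and 2 higher with the length trend removed. *mys*, the main beta integrin, was at 98.1 and 97.0 CPM in *y w* and 104 and 113 CPM in the libraries labelled *Pngl*-/- (log2 fold change 0.15), and *scb*, an alpha integrin, at 163 and 164 CPM and at 189 and 193 CPM (0.22). Of 9 basement membrane genes 8 were tested, and in the libraries labelled *Pngl*-/- 7 fell against *Pngl Dp/+*, 5 against *y w* and 5 against *Pngl*+/-. Of all tested genes, 22.2%, 24.4% and 13.1% fell in these comparisons. Those that fell in all 3 comparisons were *LanA*, the laminin alpha chain, at −2.61 against *y w*, *trol*, the fly perlecan, at −1.66, and *Ndg*, the fly nidogen, at −1.68. In *Pngl*+/- against *y w*, 3 of this list fell and 2 rose. *LanA* and *trol* have long transcripts, of 11690 and 14232 bases. With the length trend removed, 4 of the basement membrane genes were lower and 1 higher against *y w*, 1 was lower against *Pngl Dp/+* and 4 against *Pngl*+/-, while in *Pngl*+/- against *y w* none was lower and 3 were higher.

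The levels do not separate visceral muscle from muscle of the body wall. The 10 genes are used by both, and the study's tissue label is the only ground for calling them genes of visceral muscle here. Transcription factors of visceral mesoderm, named here after their values were seen, were near the lower limit of detection, with *bin* at 0.565 to 0.934 CPM, *bap* at 0.0990 to 0.363 CPM and *HLH54F* at 0.209 to 0.693 CPM over the 8 libraries. Of 9 regulators on that list only *Mef2* and *how* were tested. *how*, an RNA-binding protein needed in muscle, was at 18.3 and 18.5 CPM in *y w*, 17.9 and 17.4 CPM in *Pngl Dp/+*, 8.0 and 9.36 CPM in *Pngl*+/- and 3.89 and 4.21 CPM in the libraries labelled *Pngl*-/- (log2 fold change −2.19 against *y w*, adjusted p = 2.63e-11). *Mef2*, the general muscle transcription factor, which is named here after its values were seen, was at 24.3 and 24.9 CPM in *y w*. Its level was 32.3 and 32.6 CPM in *Pngl Dp/+* and 25.9 and 26.5 CPM in the libraries labelled *Pngl*-/- (log2 fold change 0.08 against *y w*, adjusted p = 0.221). With the length trend removed, 1 of the 2 tested regulators was lower and 1 higher against *y w* in both low genotypes.

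Regulators of body wall muscle were as low, with 1 of 8 tested. This was *ap*, at 7.10 and 8.34 CPM in *y w*. It was at 5.09 and 3.66 CPM in the libraries labelled *Pngl*-/- (log2 fold change −0.83). *ap* passed the filter, which used CPM without TMM factors, only through *y w* and *Pngl Dp/+*, where it is high. Its fold change is therefore given as a value alone. *nau*, the fly MyoD, also named after its values were seen, was at 0 to 0.439 CPM. Genes of adult flight muscle, named after their values were seen, were close to 0, with *Act88F* at no more than 0.156 CPM and *fln* at no more than 0.141 CPM in any library.

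Markers of other tissues that a midgut dissection can carry also differed between genotypes. The summed level of 5 tracheal markers was 332 to 340 CPM in *y w*, 233 to 239 CPM in *Pngl Dp/+*, 163 CPM in *Pngl*+/- and 113.8 to 114.6 CPM in the libraries labelled *Pngl*-/-, and all 3 that were tested fell against *y w* in both low genotypes. One of them was *serp*, a chitin deacetylase, at −1.69 in the libraries labelled *Pngl*-/-. Tracheal markers were thus low where the sarcomere genes were low, although *Pngl Dp/+* had less of them than *y w*. The summed level of 5 neuronal markers was 60.3 to 61.1 CPM in *y w*, 52.3 to 53.2 CPM in *Pngl Dp/+*, 42.7 to 44.5 CPM in *Pngl*+/- and 43.7 to 45.6 CPM in the libraries labelled *Pngl*-/-. Of the 3 tested, 2 fell in each low genotype against *y w*, and *elav* was at −1.49 in the libraries labelled *Pngl*-/-. The other that fell, *nSyb*, named after its values were seen, passed the filter only through *y w* and *Pngl Dp/+*, where it is high. With the length trend removed, the 3 tracheal markers kept their direction and calls in both low genotypes, whereas 1 neuronal marker was lower and 1 higher in the libraries labelled *Pngl*-/- and none was called in *Pngl*+/-.

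The other marker lists held genes of differing patterns. Summed fat body markers (6 genes) were at 29850 to 30210 CPM in *y w*, 33050 to 34300 CPM in *Pngl Dp/+*, 50530 to 52750 CPM in *Pngl*+/- and 24390 to 24460 CPM in the libraries labelled *Pngl*-/-, where *Fbp2* was at −4.51 against *y w*. Summed haemocyte markers (5 genes) were at 66.6 to 67.5 CPM in *y w*, 65.4 to 67.6 CPM in *Pngl Dp/+*, 57.9 to 58.9 CPM in *Pngl*+/- and 26.1 to 27.9 CPM in the libraries labelled *Pngl*-/-, where *Pxn* was at −0.78 and *eater* at −3.04. The haemocyte sum was thus lowest in the libraries labelled *Pngl*-/-, and that of *Pngl*+/- was nearer to the other genotypes. Within these lists *Fbp1*, *Fbp2*, *Hml* and *eater* fell against *y w* in both low genotypes, as most sarcomere genes did, while the 4 *Lsp* genes, which make up most of the fat body sum, rose in *Pngl*+/-. Other haemocyte markers went the other way. *NimC1*, which passed the filter only through *Pngl Dp/+*, was at 1.79 in the libraries labelled *Pngl*-/- and 1.87 in *Pngl*+/- against *y w*. *Pxn* rose in *Pngl*+/- (0.68). Of the 5 haemocyte markers, 3 fell and 1 rose in the libraries labelled *Pngl*-/- against *y w*, and 2 fell and 2 rose in *Pngl*+/-. *Fbp1*, *Hml*, *NimC1* and the *Lsp* genes are named after their values were seen. Summed salivary gland markers (6 genes) were at 3723 to 3791 CPM in *y w* and at 3915 to 4053 CPM in the libraries labelled *Pngl*-/-, with 6542 to 7083 CPM in the other genotypes, and against *y w* 1 of them fell in the libraries labelled *Pngl*-/- (*Sgs3*, at −1.69) and 2 rose. Malpighian tubule markers (*Uro* and *Irk3*) summed to 48.1 to 49.3 CPM in *Pngl Dp/+* and 97.2 to 131 CPM in the other genotypes.

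Markers of the gut epithelium were not lower as a group in the libraries labelled *Pngl*-/-. All 5 enterocyte markers rose there against *y w*, 2 rose against *Pngl*+/- and 3 against *Pngl Dp/+*, and 1 rose in *Pngl*+/- against *y w*. *Mex1* was at a log2 fold change of 1.00 against *y w* and *nub* at 0.60. With no composition normalization 3 of the 5 rose against *y w*. Summed enteroendocrine markers (5 genes) were at 56.6 to 61.1 CPM in *y w*, 44.7 to 46.1 CPM in *Pngl Dp/+*, 55.0 to 55.8 CPM in *Pngl*+/- and 55.4 to 58.0 CPM in the libraries labelled *Pngl*-/-, and *pros*, whose longest transcript has 23486 bases, was at −2.92 against *y w*. It passed the filter only through *y w* and *Pngl Dp/+*, where it is high, so its fold change is given as a value alone. *pros* was the only one of the 5 that fell, and 2 rose. No marker of these tissue lists was at 0 in any library. The part of any of these tissues in the sarcomere gene levels was not tested.

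The genes whose level over the 8 libraries was most like that of the sarcomere genes were not mainly sarcomere genes. Likeness was the root mean square difference in centred log2 CPM from the median profile of the 10 genes, over the 8 libraries of 4 genotypes. Among the other tested genes with the smallest differences were *vsg*, *smash*, *svr*, *hdly*, *RhoGAP68F*, *Pde11*, *Ip6k*, *l(2)gl* and *Mf*, from 0.0430 to 0.0734. *Mf*, the thick filament protein myofilin, was at 447 CPM on average in *y w*, 441 CPM in *Pngl Dp/+*, 249 CPM in *Pngl*+/- and 277 CPM in the libraries labelled *Pngl*-/-. *vsg* was at 170 CPM in *y w*, 185 CPM in *Pngl Dp/+*, 106 CPM in *Pngl*+/- and 109 CPM in the libraries labelled *Pngl*-/-. Of the 10 genes themselves, *Tm2* was closest to the median profile at 0.0146, and *bt* and *sls* were farthest from it at 0.985 and 0.798. Many genes share such a profile, and the other sarcomere genes ranked from 10 (*Mf*) to 7219 (*Msp300*) in likeness.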

How the data were processed

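Midgut mRNA of 4 genotypes, 2 libraries each, was sequenced with a stranded poly(A) kit. The authors trimmed the reads with cutadapt (version 1.4 in the submitters' processing notes, while the methods give another), aligned them to the fly genome with STAR 2.5.3 and deposited raw counts per gene, which total the reads over the merged exons of each gene. Whether the counting used strand, and how reads that fit several genes were treated, are not given in the sources used here. All count columns were used, with 0 left out.

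Symbols were matched to the FlyBase identifiers of the table, and 17582 of its 17713 genes had a position in the Release 6 (dm6) annotation, from which transcript lengths were taken. Genes with at least 5 CPM, here without TMM factors, in at least 2 libraries were kept (7665). TMM factors and the quasi-likelihood test of edgeR 4.0.16 (R 4.3.3) were applied to all 8 libraries with 1 mean per genotype. Residual degrees of freedom were 4 and the common dispersion was 0.001937. All 6 comparisons between genotypes were made, and p-values were adjusted over all tested genes by the Benjamini-Hochberg method. The filter and the fold change threshold of 1.5 follow the study, whose edgeR fit is the likelihood ratio alternative below. Depth limits the lowest values, with member counts between 84 and 75584 per library.

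Alternatives were DESeq2 1.42.0, edgeR's likelihood ratio test, other scaling factors and filters, only the compared genotypes, a replicate block, and leaving out each library. Removing the transcript length trend (lowess, span 0.3) and a block with crossed numbers were added after seeing the data. The test was checked on simulated counts. The 10 genes and all gene lists were chosen with earlier results of these data known. Named from each list were the genes called in the same direction in all 3 comparisons of the libraries labelled *Pngl*-/-, at most 4 by mean log2 fold change, or failing any the 2 most abundant, and also the 10 genes most alike in profile, of which 1 is not reported here. Listed genes that were not matched are not analysed here. No sequences were analysed.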

Additional observations from a re-analysis of the deposited data

How the results depend on the processing

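The direction of all 10 genes held in the libraries labelled *Pngl*-/- against *y w* and against *Pngl Dp/+*, and in *Pngl*+/- against *y w*, under DESeq2 and each other scaling and filter. No composition normalization, which shifted the median of all genes by −0.39, gave 10 calls for the libraries labelled *Pngl*-/- against *y w*. *Pngl*+/- against *y w* gave 5 with TMM factors from all genes and 5 with no filter. These settings gave 6 and 6 for the libraries labelled *Pngl*-/- against *Pngl Dp/+* and 4 and 4 against *y w*. With the length trend removed, the libraries labelled *Pngl*-/- against *Pngl*+/- gave 0 calls, with *Mlc1* at −0.016, *up* at −0.012, *bt* at 0.12 and *sls* at 0.32, and *sls* was at 0.44 against *y w* and 0.34 against *Pngl Dp/+*. *wupA* against *Pngl*+/- was at 0.055 with TMM factors from all genes, 0.049 at a minimum of 1 CPM and 0.056 with no filter. The cause of these changes was not tested.

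Leaving out each library in turn gave 5 to 7 calls for the libraries labelled *Pngl*-/- against *y w*, 7 to 9 for *Pngl*+/- against *y w*, and the same counts as with all libraries in the other comparisons. Against *Pngl*+/-, *wupA* then ranged from −0.077 to 0.036 and *up* from −0.027 to 0.073. Without the 50 most abundant other genes the mean shares of counts were 1.71% for both *y w* and *Pngl Dp/+*, 0.859% for *Pngl*+/- and 0.828% for the libraries labelled *Pngl*-/-. Without *Act57B* they were 0.672% and 0.705%, 0.328%, and 0.332%.

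A fit with the replicate number as a block gave 6, 2, 9, 8, 0 and 10 calls, the same as without it, for the libraries labelled *Pngl*-/- against *y w*, *Pngl*+/- and *Pngl Dp/+*, for *y w* compared with *Pngl*+/- and then *Pngl Dp/+*, and lastly for the latter pair. Deviations of same-numbered libraries correlated between −0.20 (*y w* with *Pngl Dp/+*) and 0.38 (*Pngl*+/- with *Pngl Dp/+*). With 2 libraries a genotype these values cannot show whether same-numbered libraries were handled together. Crossing the numbers of *y w* and *Pngl Dp/+* also gave 0 calls between them.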
